A study of Mus musculus with 4 samples.

Results

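The genes described here are 10 cytoskeletal genes that are known for high expression in immature neurons: the β-tubulins Tubb2b, Tubb5, Tubb2a and Tubb3, the α-tubulin Tuba1a, the β-thymosins Tmsb10 and Tmsb4x, doublecortin (Dcx), and the stathmins Stmn1 and Stmn2. They were taken by symbol from the 31053 genes of the deposited matrix, and 8 of the 10 had counts while Tubb3 and Tuba1a were at 0 in every nucleus. The set was chosen by measured values of these same libraries, since several of the genes had lower UMI levels at later stages in every cell class, so the differences between stages below describe the genes and are not a test of them. The study sequenced RNA of single nuclei from the superior colliculus, a midbrain centre for vision and orienting, of C57BL/6J mice. The stages were embryonic day 19 (E19), and after birth day 4 (P4), day 8 (P8) and day 21 (P21). Every stage was 1 library made from tissue pooled over several animals, with no genetic change or treatment named in the labels. Differences between stages are therefore differences between 1 library and another with no replicate check, and all intervals given are 95% intervals that cover counting error only.

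Microtubules are polymers of α- and β-tubulin, and each tubulin is encoded by several genes, called isotypes, that are used to different extents as neurons mature. Dcx binds and stabilises microtubules in migrating and newly formed neurons, stathmins bind free tubulin and promote microtubule disassembly, and β-thymosins hold actin monomers in reserve for filament growth. Such genes are used as signs of young, growing neurons, although mature neurons or glia keep some of them.

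Promoters of 4 of the genes are shown because they stand for the patterns described below: Tubb2a, Tubb5 and Tmsb4x were much lower in counts per nucleus at P21 than at E19 in neurons, whereas Dcx was not. The sequences run from 250 bases before to 50 bases after a start site annotated by RefSeq on GRCm38.p6, in which 7 of the 10 genes had an entry and Tubb2b, Stmn1 and Stmn2 had none. Capitals mark the CCAAT box (CCAAT or its reverse complement ATTGG), the TATA box (TATAAA or TTTATA) and a Sox-type motif (ACAAAG or CTTTGT) on either strand, and the GC box (GGGCGG or CCGCCC) was searched but left in lower case. Dcx has a further annotated start nearby, whose window is counted with it but not shown. Tmsb10, not shown, also has several windows, and a gene was counted where any of its windows held the motif. The windows are chr13:34077959-34078258, minus strand, for Tubb2a, chr17:35838252-35838551, minus strand, for Tubb5, chrX:167209169-167209468, minus strand, for Tmsb4x, and chrX:143933170-143933469, minus strand, for Dcx.
Tubb2a: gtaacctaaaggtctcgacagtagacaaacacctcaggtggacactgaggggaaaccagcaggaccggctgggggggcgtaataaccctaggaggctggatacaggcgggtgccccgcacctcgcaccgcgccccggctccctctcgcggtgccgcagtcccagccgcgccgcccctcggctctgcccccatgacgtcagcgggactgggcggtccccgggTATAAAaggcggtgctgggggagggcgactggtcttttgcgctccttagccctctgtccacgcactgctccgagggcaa
Tubb5: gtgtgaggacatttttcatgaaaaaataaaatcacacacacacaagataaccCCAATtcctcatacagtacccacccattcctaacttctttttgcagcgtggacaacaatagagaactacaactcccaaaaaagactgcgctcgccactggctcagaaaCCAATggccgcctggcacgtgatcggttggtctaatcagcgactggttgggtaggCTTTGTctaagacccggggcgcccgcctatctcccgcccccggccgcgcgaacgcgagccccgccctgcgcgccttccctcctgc
Tmsb4x: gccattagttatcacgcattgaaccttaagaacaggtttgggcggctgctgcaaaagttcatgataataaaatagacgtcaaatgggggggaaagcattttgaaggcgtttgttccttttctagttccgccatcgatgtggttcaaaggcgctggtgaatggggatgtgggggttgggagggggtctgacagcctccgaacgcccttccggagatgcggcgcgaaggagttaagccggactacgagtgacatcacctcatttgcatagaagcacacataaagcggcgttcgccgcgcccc
Dcx: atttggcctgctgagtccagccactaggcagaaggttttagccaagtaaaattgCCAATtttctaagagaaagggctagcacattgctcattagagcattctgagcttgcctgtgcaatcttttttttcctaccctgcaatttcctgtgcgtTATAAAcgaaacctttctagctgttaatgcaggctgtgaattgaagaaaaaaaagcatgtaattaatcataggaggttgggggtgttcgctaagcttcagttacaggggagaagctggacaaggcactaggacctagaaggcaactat
The shown Dcx window was 43.0% G or C, against 67.0% for Tubb2a, 55.0% for Tubb5, 52.7% for Tmsb4x and a median of 52.7% over 32851 RefSeq promoters of this length. A GC box was present in 6 of the 7 genes with an entry, all but Dcx, and in 35.7% of all promoters. A CCAAT box was present in 4 of the 7, namely Dcx, Tuba1a, Tubb3 and Tubb5, and in 37.4% of all promoters. A TATA box was present in Dcx and Tubb2a and in 13.6% of all promoters, and the Sox-type motif in Dcx and Tubb5 and in 18.7%. The E-box CAGCTG was in none of the 7 and in 16.3% of all promoters. A further E-box, CATCTG (reverse complement CAGATG), was also in none of them and in 17.2% of all promoters. The shares of all promoters are per window, while the counts above are per gene. By window the GC box was in 8 of 10, the CCAAT box in 5, the TATA box in 3 and the Sox-type motif in 2. These matches describe letters only, and no binding was measured.

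The libraries held 19277512 to 31325079 UMIs (unique molecular identifiers, each a counted RNA molecule) in 2585 (E19), 2386 (P4), 2504 (P8) and 2249 (P21) nuclei, with medians of 6828 to 11745 per nucleus. Depth differed with stage and class: the median nucleus of excitatory neurons held 8051.5 UMIs at E19 and 19601 at P21, while that of astrocytes held 4697 and 5525. Because of this, levels are given both as UMIs per nucleus and as CPM, the UMIs per 1000000 UMIs of the class. The authors' classes were checked against marker genes, and all 4 inhibitory, 5 microglial, 4 endothelial and 5 vascular leptomeningeal markers were highest in their class, as were 2 of 3 excitatory, 2 of 4 astrocyte and 4 of 8 oligodendrocyte lineage ones, whereas none of 5 epithelial markers was and 2 of those were at 0. The class called epithelial is therefore not borne out by its markers. Barcodes shared between libraries numbered 9.

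Tubb3, the neuron-specific β-tubulin, and Tuba1a, the main α-tubulin of developing neurons, had 0 UMIs in all 9724 nuclei, so neither could be described. Tubb3 (chr8:123411424-123422015, plus strand) lies inside Gm20388, a predicted gene of 4435 kb on the same strand that had 33440 UMIs. All 59 genes that lie inside Gm20388 on its strand were at 0, against 2 of 49 on the opposite strand. Tuba1a (chr15:98949837-98953703, minus strand) overlaps Gm49450, a same-strand gene with 614 UMIs. The 0 of these 2 genes is not read as absence of their RNA, because the sources used here do not say how reads of overlapping genes were assigned.

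Tubb2b (chr13:34126748-34130466, minus strand), a β-tubulin isotype of migrating neurons, was the gene with the widest range across stages. In excitatory neurons its level was 704 CPM (688 to 719) at E19. It was 336 (327 to 346) at P4, then 133 (127 to 139) at P8 and 5.0 (3.92 to 6.28) at P21. In inhibitory neurons the levels were 880, 437, 189 and 4.95 CPM in the same order. Each stage was below the one before in both classes and no 2 intervals overlapped, and P21 was 141-fold below E19 in excitatory and 178-fold below it in inhibitory neurons. On the log2 scale, after adding 5 CPM to each level (a step that shrinks differences of low genes), this was -6.15 (-6.32 to -5.98) and -6.47. In excitatory neurons P21 lay -3.79 from P8, a wider gap than the -1.05 between E19 and P4 and the -1.31 between P4 and P8. The step from P8 to P21 also spans the most days, so these gaps are not rates.

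Glia had Tubb2b too. Astrocytes had 1113, 825, 323 and 11.7 CPM from E19 to P21, and the oligodendrocyte lineage had 1186, 845, 386 and 11.9 CPM. Both were above the neurons on this scale at every stage. Per nucleus the order was different, with 6.06, 4.15, 2.02 and 0.107 UMIs in excitatory neurons, 5.87, 3.78, 1.93 and 0.0757 in inhibitory neurons, and 5.26, 3.74, 1.72 and 0.0662 in astrocytes. Microglia, endothelial and epithelial-labelled nuclei, put together because each had few nuclei (39, 62, 68 and 85 in all, from E19 to P21), are called the comparison group below. This group held 5.10 (4.42 to 5.86), 3.27 (2.84 to 3.76), 1.75 (1.45 to 2.09) and 0.0824 (0.0331 to 0.17) UMIs of Tubb2b per nucleus. An excitatory nucleus held 1.19, 1.27, 1.15 and 1.30 times as many as one of these in the 4 stages, and over the classes with at least 20 nuclei the highest and lowest were 1.38-fold apart at E19, 1.57-fold at P4 and 1.29-fold at P8. At P21 they were 4.85-fold apart, from 0.025 UMIs in epithelial-labelled nuclei to 0.121 in microglia, at very low counts. Genes of mature neurons were less even, to differing extents. At E19 Rbfox3, a splicing factor of postmitotic neurons, had 3.08 UMIs per excitatory nucleus and 0.0256 in the comparison group, which rests on 1 UMI. At P4 Rbfox3 had 3.76 and 0.371. At E19 Syt1, a synaptic vesicle calcium sensor, had 9.93 and 0.410, and Snap25, a further neuronal marker, had 1.88 and 0.333. In droplet libraries RNA from outside the nuclei can be counted with any class, so the level of Tubb2b that all classes had in common is not read here as expression by each of them. The neurons lay somewhat above it, in deeper nuclei (medians of 8051.5 UMIs in excitatory neurons and 4324 in the comparison group at E19).

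**Figure D1:**
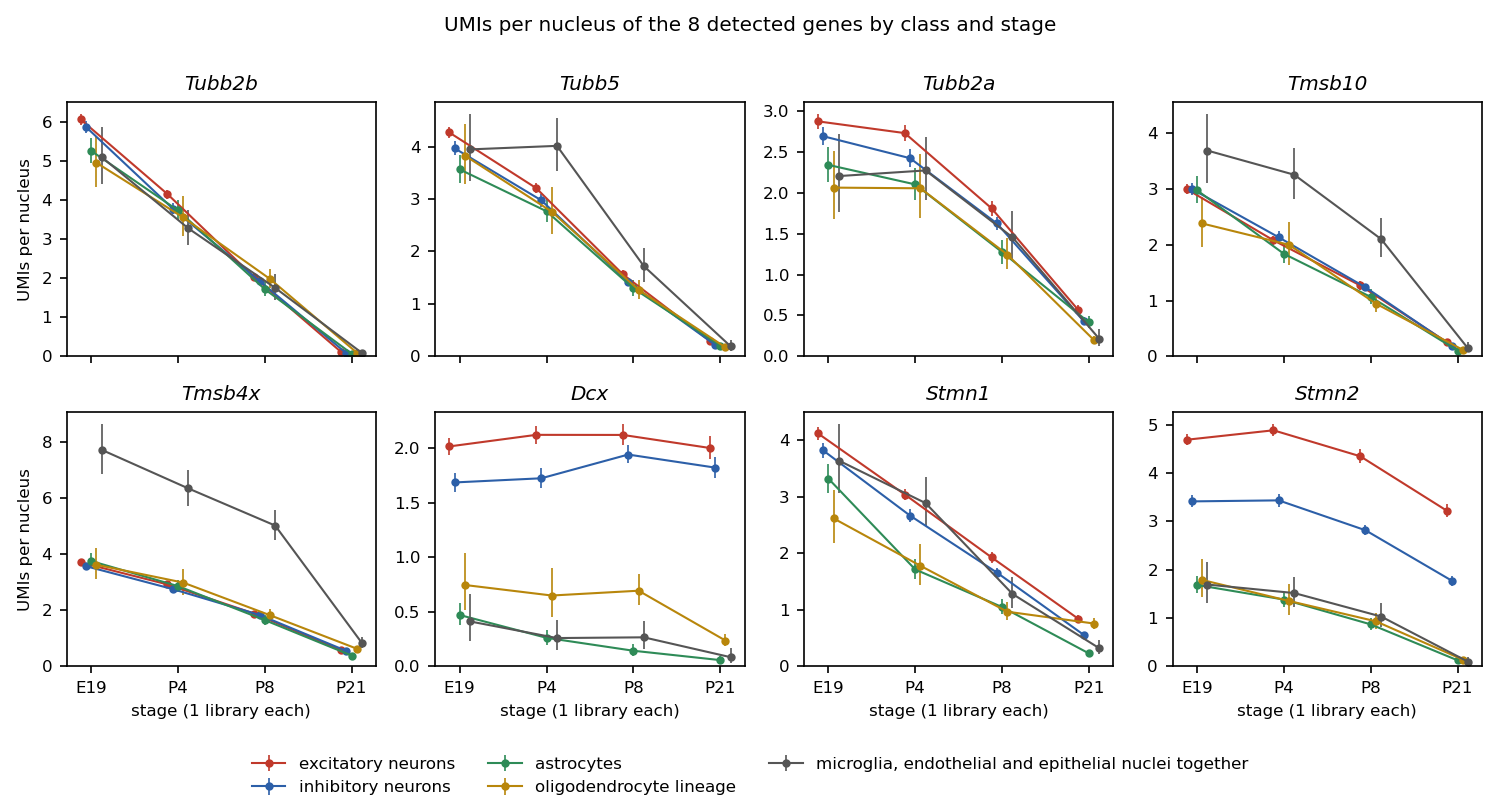
UMIs per nucleus (vertical axes) of the 8 genes with counts at E19, P4, P8 and P21 (horizontal axes), 1 panel a gene, with excitatory neurons in red, inhibitory neurons in blue, astrocytes in green, the oligodendrocyte lineage in gold and microglia, endothelial and epithelial-labelled nuclei together in grey. Points are the value of 1 library and bars are 95% Poisson intervals; the lines of Tubb2b nearly coincide (6.06 in excitatory neurons and 5.10 in the grey group at E19), whereas Dcx and Stmn2 are apart.

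Tubb5 (chr17:35833921-35838306, minus strand), a widely used β-tubulin, ran alongside Tubb2b but ended higher. In excitatory neurons it had 496 (483 to 509), 260 (252 to 268), 103 (97.3 to 108) and 13.7 (11.9 to 15.7) CPM at E19, P4, P8 and P21, and in inhibitory neurons 595, 344, 139 and 14.2. The intervals of the 4 stages did not overlap in either class, and P21 was 36.2-fold and 41.8-fold below E19. Astrocytes had 755, 611, 244 and 35.7 CPM. Per nucleus, excitatory neurons had 4.27, 3.21, 1.56 and 0.293 UMIs and the comparison group 3.95, 4.02, 1.72 and 0.188. Excitatory neurons held 1.08 times (0.922 to 1.27) the level of that group at E19, 0.799 times (0.703 to 0.908) at P4 and 0.908 times (0.751 to 1.10) at P8. The 22 endothelial nuclei of P4 held 6.18 UMIs of Tubb5 each, above the 3.21 of excitatory neurons.

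Tubb2a (chr13:34074274-34078007, minus strand), the near-identical neighbour of Tubb2b and an isotype that adult neurons keep, differed less between stages. Excitatory neurons had 334 (323 to 344), 221 (214 to 229), 119 (113 to 125) and 26.3 (23.7 to 29.1) CPM, a 12.7-fold difference from E19 to P21. Inhibitory neurons had 403, 280, 160 and 28.1 CPM, a 14.3-fold difference. Every later stage was again lower with no overlap of intervals. Per nucleus, excitatory neurons held 2.88, 2.73, 1.81 and 0.563 UMIs, so E19 and P4 were close on that scale. At P21 protoplasmic astrocytes had 79.3 CPM of Tubb2a (65.3 to 95.5), above the neurons on that scale, but 0.478 UMIs per nucleus against 0.563 in excitatory neurons. UMIs of Tubb2a and Tubb2b come from closely similar genes, and how reads that fit both were assigned is not given in the sources used here.

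Between isotypes, the ratio of UMIs cancels the total UMIs of a class, but not depth where 2 genes follow it differently. In excitatory neurons at P21 the deepest of 3 equal sets of nuclei held 1.93 times the Tubb2a UMIs of the shallowest. For Tubb2b it was 1.26 times. What part depth has in the ratios below was not tested. From E19 to P21 the log2 ratio of Tubb2a to Tubb2b was higher by 3.47 (3.11 to 3.84) in excitatory and 3.63 in inhibitory neurons, and that of Tubb5 to Tubb2b by 1.96 and 2.09. Tubb4a, an isotype of mature neurons and oligodendrocytes, had 38.0 CPM at E19 and 29.6 at P21 in excitatory neurons, and its log2 ratio to Tubb2b was higher by 6.78 in excitatory and 6.70 in inhibitory neurons. Tubb4b, a widely used isotype, had 38.9 and 10.8 CPM in excitatory neurons, with a log2 ratio to Tubb2b higher by 5.29 and 5.22. Among α-tubulins, Tuba1b had 102 CPM at E19 and 15.8 at P21 in excitatory neurons, and the log2 ratio of Tuba4a to Tuba1b was higher by 4.22 in excitatory and 3.84 in inhibitory neurons. In both neuron classes the isotype with the lowest share of its E19 level at P21 was thus Tubb2b among those listed, but each ratio includes whatever RNA from outside the nuclei the counts hold, and its part was not tested.

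**Figure D2:**
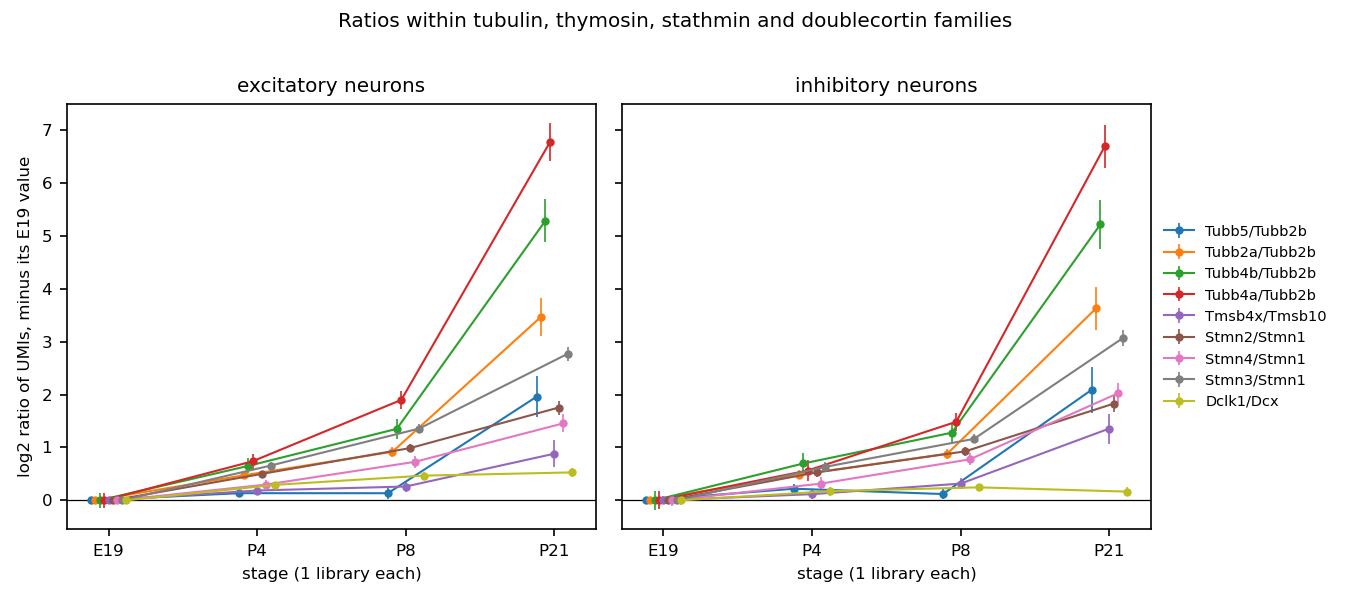
Log2 ratio of UMIs of one gene to another of its family, minus the value at E19 (vertical axis), at E19, P4, P8 and P21 (horizontal axis), in excitatory and inhibitory neurons. Bars are 95% counting intervals; Tubb4a to Tubb2b reached 6.78 at P21 in excitatory neurons, Tubb5 to Tubb2b 1.96 and Dclk1 to Dcx 0.53.

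The thymosins had the same order of stages. Tmsb10 (chr6:72957347-72958748, minus strand) had 348 (338 to 359), 169 (162 to 175), 83.5 (78.6 to 88.5) and 11.6 (9.96 to 13.5) CPM in excitatory neurons and 450, 247, 121 and 11.7 CPM in inhibitory neurons. Tmsb4x (chrX:167207093-167209315, minus strand) had 429 (417 to 441), 236 (228 to 244), 123 (117 to 129) and 26.4 (23.9 to 29.2) CPM in excitatory and 534, 318, 179 and 35.6 CPM in inhibitory neurons. No 2 stages overlapped for either gene in either class, and P21 was 29.9-fold and 38.5-fold below E19 for Tmsb10, and 16.2-fold and 15.0-fold for Tmsb4x. Tmsb4x was the member least tied to neurons: the comparison group had 7.72, 6.34, 5.01 and 0.824 UMIs per nucleus against 3.70, 2.92, 1.87 and 0.566 in excitatory neurons. Excitatory neurons thus held 0.479, 0.460, 0.374 and 0.687 times the level of that group. The 22 endothelial nuclei of P4 had 12.8 UMIs of Tmsb4x each, or 1227 CPM, and microglia had 1020, 817 and 324 CPM at P4, P8 and P21. Tmsb10 was at 3.00 UMIs per excitatory nucleus and 3.69 per nucleus of the comparison group at E19, and at 0.249 and 0.141 at P21.

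**Figure D3:**
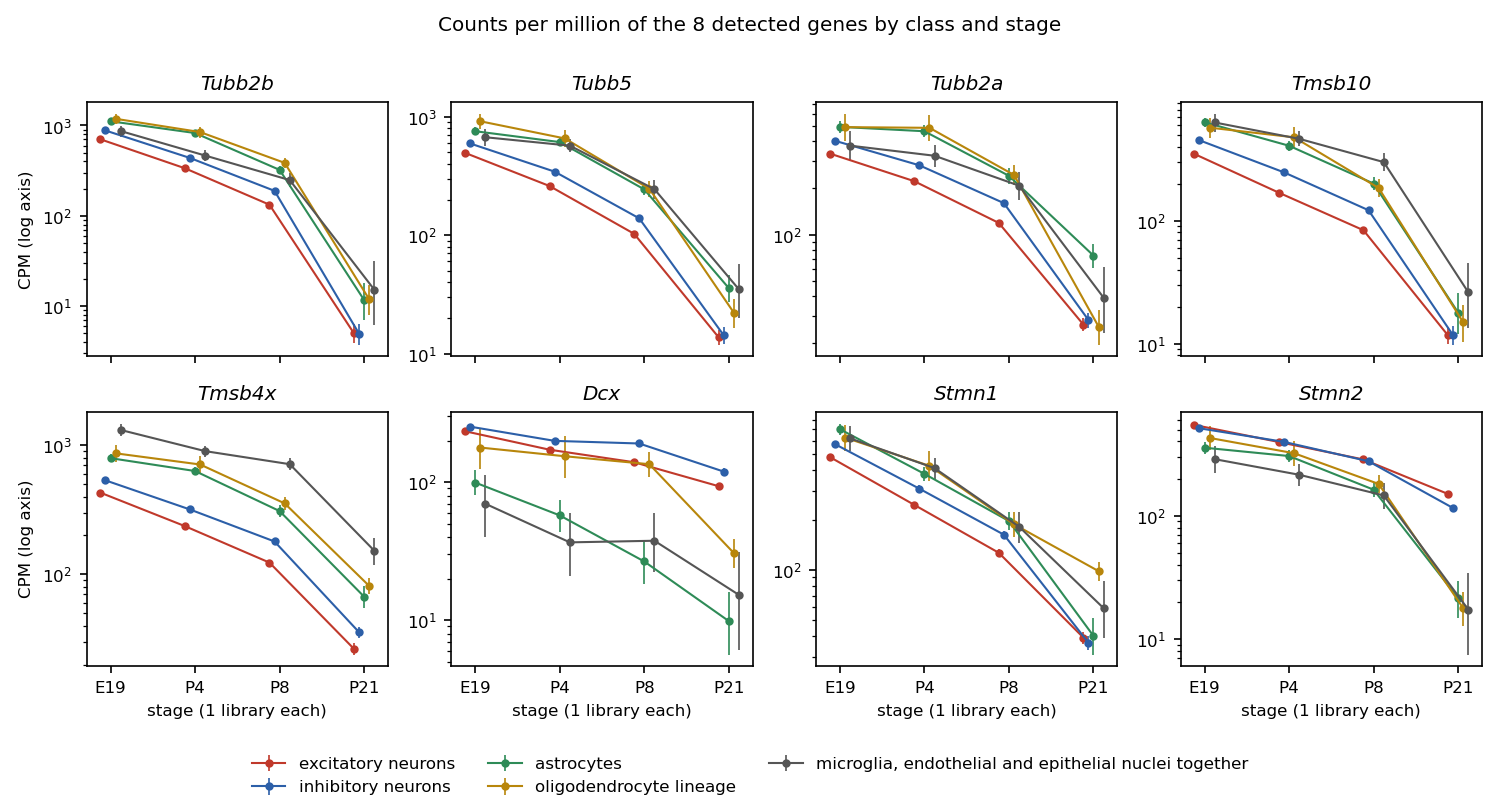
CPM (vertical axes, log scale) of the 8 genes with counts at E19, P4, P8 and P21 (horizontal axes), with the same classes and colours as the plot of UMIs per nucleus and 95% Poisson intervals as bars. In CPM all 8 genes were lower at P21 than at E19 in both neuron classes, which for Dcx did not hold per nucleus in inhibitory neurons (log2 ratio 0.11); the range ran from 704 to 5.0 CPM for Tubb2b and from 234 to 93.5 CPM for Dcx in excitatory neurons.

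Dcx (chrX:143855842-143933311, minus strand), a gene of 77.5 kb, was the member that differed least between stages in neurons. Excitatory neurons had 234 (225 to 243), 172 (165 to 179), 139 (133 to 146) and 93.5 (88.6 to 98.5) CPM at E19, P4, P8 and P21. Inhibitory neurons had 252 (240 to 266), 199 (188 to 210), 191 (183 to 199) and 119 (113 to 126) CPM. On this scale P21 was lowest in both classes and E19 highest, 2.50-fold and 2.12-fold apart, and the inhibitory intervals of P4 and P8 overlapped.

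Per nucleus this difference was not seen. Excitatory neurons held 2.02 (1.94 to 2.09), 2.12 (2.04 to 2.21), 2.12 (2.03 to 2.22) and 2.0 (1.90 to 2.11) UMIs of Dcx, and all 4 intervals overlapped. Inhibitory neurons held 1.69 (1.60 to 1.77), 1.72 (1.63 to 1.82), 1.94 (1.86 to 2.03) and 1.82 (1.73 to 1.92), with E19 below P8 and no stage below E19. The log2 ratio of UMIs per nucleus, P21 over E19, was -0.01 (-0.10 to 0.08) in excitatory and 0.11 (0.01 to 0.22) in inhibitory neurons. Total UMIs per nucleus were higher at P21 over the same stages, so the lower CPM of Dcx goes with deeper nuclei, and whether the P21 nuclei held more RNA or were sampled more deeply cannot be told apart with 1 library a stage. When all nuclei were thinned to 2000 UMIs, 36.7% of excitatory nuclei had a Dcx UMI at E19 and 18.3% at P21 (80.5% and 76.0% unthinned), and 38.3% and 22.8% of inhibitory nuclei did (74.6% and 71.1% unthinned). In the comparison group the thinned shares were 17.9% and 5.88% (30.8% and 7.06% unthinned), with median depths of 4324 and 4092 UMIs.

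Per nucleus, and unlike Tubb2b, Tubb5 and the thymosins, Dcx in neurons was well above the comparison group at all stages. Excitatory nuclei held 4.91 times (3.01 to 8.03) the Dcx UMIs of the comparison group at E19, and 8.22, 8.01 and 24.3 times (11.6 to 51.1) at P4, P8 and P21. Inhibitory nuclei held 4.11, 6.68, 7.33 and 22.1 times as many. These ratios are not scaled for depth. Median depth was 8051.5 UMIs at E19 and 19601 at P21 in excitatory neurons, against 4324 and 4092 in the comparison group. That group held 0.410, 0.258, 0.265 and 0.0824 UMIs of Dcx per nucleus. The neuronal level was above that of this group at every stage. Subtracting the group's level from both classes gave log2 CPM ratios from E19 to P21 of -1.02 in excitatory and -0.72 in inhibitory neurons. The make-up of the group differed between stages, with 13 epithelial-labelled nuclei of 39 at E19 and 40 of 85 at P21. Whether its level is that of RNA from outside the nuclei was not tested.

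Outside neurons, Dcx was highest in CPM in oligodendrocyte precursors (OPCs), the dividing glia from which myelinating cells arise, with 184, 155, 154 and 124 CPM, or 0.761, 0.619, 0.725 and 0.578 UMIs per nucleus. In CPM precursors were below both neuron classes at E19 and P4. At P8 they were at 154 against 139 in excitatory and 191 in inhibitory neurons. At P21 they were at 124 against 93.5 and 119, so Dcx in CPM did not set neurons apart from precursors at that stage. Per nucleus both neuron classes held more than precursors at every stage. The 25 dividing cells of P4 were slightly above precursors per nucleus at that stage, with 0.680 UMIs. Committed oligodendrocytes had 95.2 CPM at P8, from 33 nuclei, and 8.23 at P21. The 187 myelinating oligodendrocytes of P21 had 19.8 CPM, or 0.166 UMIs per nucleus. Protoplasmic astrocytes had 101, 65.0, 29.4 and 7.86 CPM. At P21 precursors therefore held more Dcx than either later oligodendrocyte subtype or the astrocytes.

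Among neuron subtypes, which the authors number EN1 to EN13 (excitatory) and IN1 to IN12 (inhibitory), IN3 had the highest Dcx in CPM at P8 and P21 among those with at least 50 nuclei. It had 271, 237, 293 and 203 CPM (183 to 223 at P21), with no steady order over stages, whereas IN5 was highest at E19 with 323 and IN4 was level with it at P4 with 237. Its UMIs per nucleus were 1.22, 1.23, 2.41 and 3.21, while its median depth went from 4465 UMIs at E19 to 15752 at P21. The log2 CPM ratio of IN3 from E19 to P21 was -0.41 (-0.75 to -0.08), against -1.66 in IN5, which had 323 CPM at E19 and 98.9 at P21. The other neuron subtypes with at least 50 nuclei at P21 had 70.3 (EN5) to 107 (IN4) CPM of Dcx. IN10 with 166, IN9 with 151, EN13 with 134 and EN8 with 133 CPM lay between, each from under 50 nuclei.

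**Figure D4:**
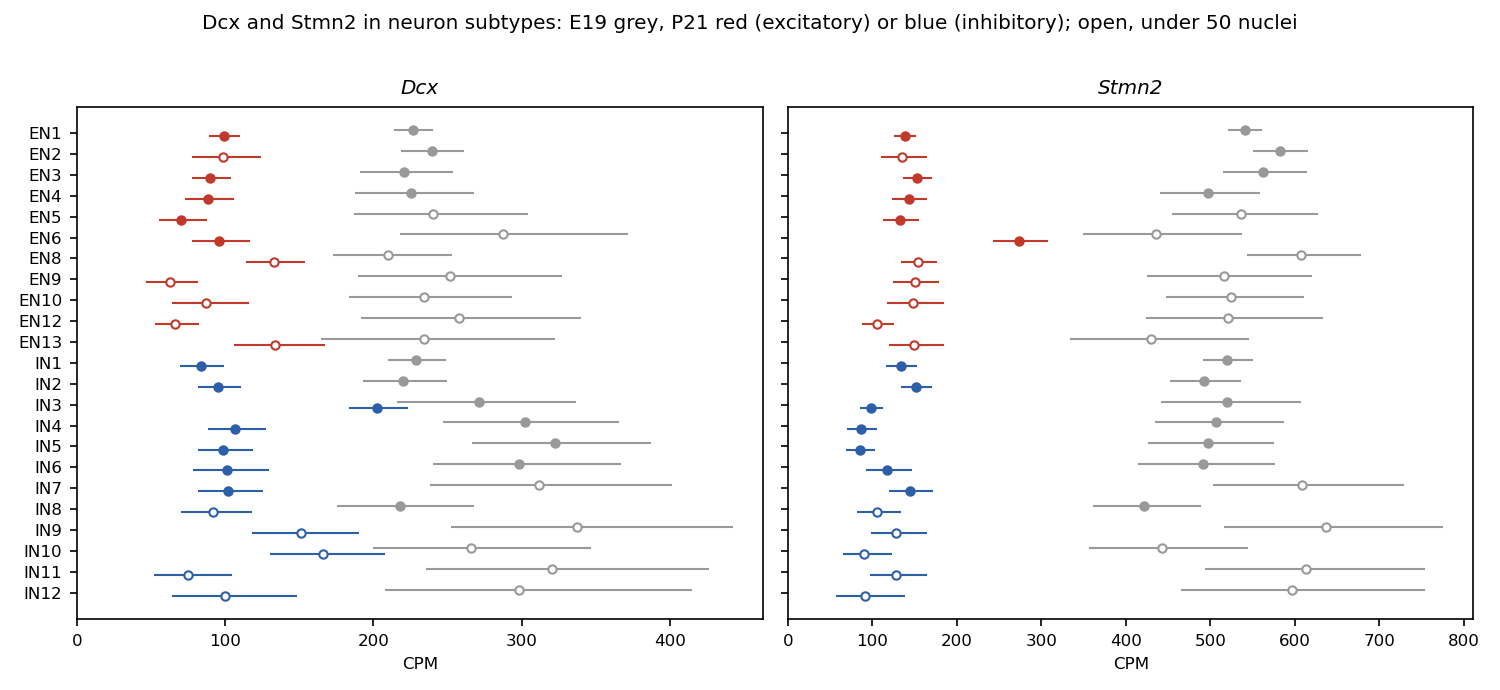
CPM of Dcx and Stmn2 (axes in CPM) in each neuron subtype of the authors at E19 (grey) and at P21 (red excitatory, blue inhibitory), with 95% Poisson intervals as bars and open symbols for subtypes with under 50 nuclei. At P21 IN3 had the highest Dcx (203 CPM) and EN6 the highest Stmn2 (274 CPM).

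Stmn1 (chr4:134468320-134473843, plus strand), the widely expressed stathmin, followed the tubulins. Excitatory neurons had 478 (466 to 491), 246 (238 to 254), 127 (121 to 133) and 39.1 (36.0 to 42.4) CPM and inhibitory neurons 572, 308, 163 and 36.4 CPM. No stages overlapped, and P21 was 12.2-fold and 15.7-fold below E19. Per nucleus, excitatory neurons held 4.12, 3.04, 1.93 and 0.837 UMIs and the comparison group 3.64, 2.89, 1.28 and 0.318. At P21 Stmn1 was highest in myelinating oligodendrocytes, at 132 CPM (115 to 151) or 1.11 UMIs per nucleus, against 53.4 CPM in OPCs, 16.5 in committed oligodendrocytes and 39.3 in protoplasmic astrocytes. The oligodendrocyte lineage as a whole had 98.2 CPM of Stmn1 at P21 and 0.755 UMIs per nucleus, against 0.837 per nucleus in excitatory neurons. Tmsb4x was similar there, with 81.2 CPM and 0.624 UMIs per nucleus against 26.4 CPM and 0.566 in excitatory neurons.

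Stmn2 (chr3:8509360-8561606, plus strand; 52.2 kb), the stathmin of growing and regenerating axons, differed less between stages in neurons than Stmn1 did. Excitatory neurons had 545 (531 to 558), 396 (386 to 406), 286 (277 to 295) and 150 (144 to 157) CPM and inhibitory neurons 512, 397, 277 and 116 CPM. No stages overlapped, but P21 was only 3.62-fold and 4.43-fold below E19. Per nucleus, excitatory neurons held 4.69, 4.89, 4.35 and 3.22 UMIs, a log2 ratio from E19 to P21 of -0.54 (-0.61 to -0.47), and inhibitory neurons 3.42, 3.44, 2.82 and 1.77, a log2 ratio of -0.95. P21 was the lowest stage on both scales, and P4 was not below E19 per nucleus.

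Per nucleus, the distance of Stmn2 in neurons from the other classes was small at E19 and large at P21. These values are not scaled for depth. The median excitatory nucleus held 8051.5 UMIs at E19 and 19601 at P21, and that of the comparison group 4324 and 4092. In CPM the highest and lowest classes with at least 20 nuclei were 2.36-fold apart at E19 and 13.8-fold at P21. Excitatory nuclei held 2.77 times (2.18 to 3.54) the Stmn2 UMIs of the comparison group at E19, 3.23 and 4.23 times at P4 and P8, and 34.2 times (17.1 to 68.5) at P21, where that group held 0.0941 UMIs per nucleus. Thinned to 2000 UMIs, 66.4% of excitatory nuclei and 51.3% of that group had a Stmn2 UMI at E19, and 24.6% and 4.71% did at P21. Unthinned, the shares were 97.1% and 76.9%, then 84.9% and 8.24%. OPCs had 435, 315, 217 and 26.7 CPM of Stmn2. The oligodendrocyte lineage held 1.79, 1.35, 0.930 and 0.137 UMIs per nucleus against 1.69, 1.52, 1.03 and 0.0941 in the comparison group. These levels were close at E19, P4 and P8, and what part RNA from outside the nuclei has in either was not tested.

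EN6 had the highest Stmn2 at P21 of the neuron subtypes, with 436, 482, 348 and 274 CPM (243 to 307 at P21) and 2.93, 3.90, 3.97 and 4.47 UMIs per nucleus. The next subtypes at P21 were EN8 with 154 CPM and EN3 and IN2 with 152 each, below the interval of EN6 on this scale, although EN8, from 46 nuclei, held 4.48 UMIs per nucleus. IN5 with 84.9 and IN4 with 86.4 CPM were lowest. From P8 to P21 the log2 ratio was -0.34 in EN6 and -1.02 in EN5. IN3, the subtype with the highest Dcx at P21, had 520 CPM of Stmn2 at E19 and 98.3 at P21, a log2 ratio of -2.34, so the subtypes that held the most Dcx and the most Stmn2 were not the same.

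The genes also differed in how they followed depth within a stage. In each neuron class and stage the nuclei were ranked by UMIs and cut into 3 equal sets, and the deepest set, which had 2.33 to 2.78 times the total UMIs, was compared with the shallowest. Dcx was 1.56 to 2.71 times higher there (median 2.37 over the 8 comparisons) and Stmn2 1.96 to 3.14 times (median 2.19), close to the totals. Tubb2b was 1.10 to 1.41 times higher (median 1.27), Tubb5 1.03 to 1.54 (1.28), Tubb2a 1.19 to 1.93 (1.34), Tmsb10 1.06 to 1.44 (1.21), Tmsb4x 1.02 to 1.57 (1.26) and Stmn1 1.24 to 1.65 (1.41). In excitatory neurons at E19, for example, shallow nuclei held 4.99 UMIs of Tubb2b and deep nuclei 7.03, while Dcx was at 1.33 and 2.76. For 5 of these 6 genes the ratio was below that of all UMIs by 1.5 times or more in all 8 comparisons, and for Tubb2a in 5 of 8. Dcx and Stmn2 are also the longest of the genes with counts, at 77.5 and 52.2 kb. These 6 genes run from 1.40 kb (Tmsb10) to 5.52 kb (Stmn1). What part gene length or RNA from outside the nuclei has in this was not tested.

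**Figure D5:**
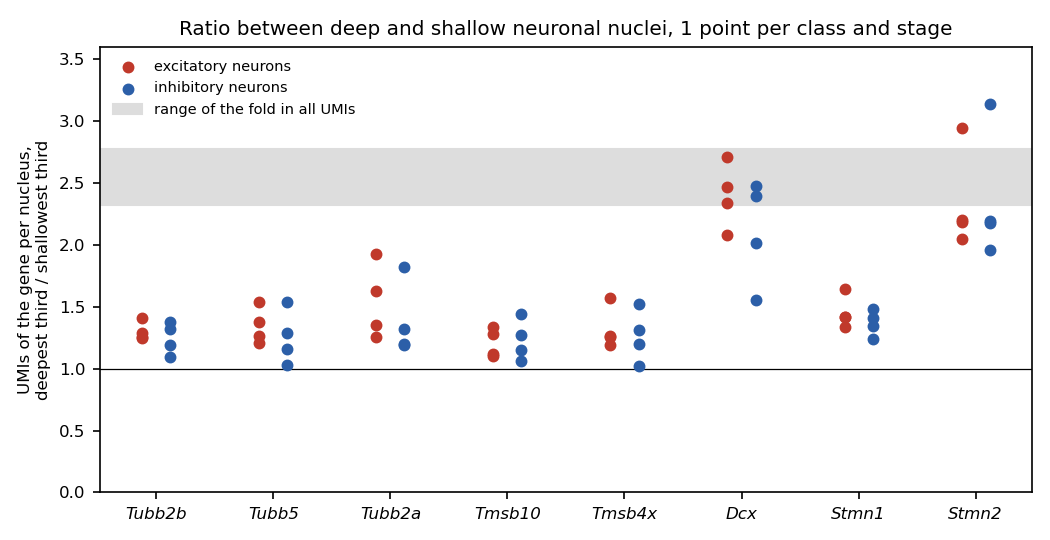
UMIs per nucleus in the deepest of 3 equal sets of neuronal nuclei divided by those in the shallowest, for each of the 8 genes, with 1 point for each neuron class and stage. The grey band is the same ratio for all UMIs, 2.33 to 2.78; Dcx (median 2.37) and Stmn2 (median 2.19) lie near it, and Tubb2b (median 1.27) lies below it.

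The members were also compared by their profiles over 18 class-by-stage points, as a description, since points of a stage share a library. The log2 CPM profiles of Tubb2b, Tubb5, Tubb2a, Tmsb10 and Tmsb4x had Pearson correlations of 0.96 to 0.99 with each other, and Stmn1 of 0.92 to 0.95 with them. Dcx had 0.33 to 0.48 with those 5 and 0.84 with Stmn2, and Stmn2 had 0.77 with Stmn1. Over 56 profiles of neuron subtypes by stage, which leave glia out, the order was the opposite: Dcx had 0.84 to 0.87 with the same 5 genes and 0.76 with Stmn2, and Stmn2 had 0.92 with Stmn1. Among 11147 genes over the 18 points, the most similar profiles to Dcx were those of Fam57b, Nexmif and Arhgef7 (0.97 each), and the most similar to Stmn2 was that of Gap43 (0.99), a growth cone protein. Closest to Tubb5 was Marcksl1 (0.99), an actin-associated membrane protein, to Tmsb4x the ribosomal protein gene Rpsa (0.99), to Tubb2b Hmgb3 (0.98) and to Stmn1 Trappc4 (0.98). Over the neuron subtypes the nearest to Dcx were Marcksl1 (0.90), Marcks (0.89) and Rplp0 (0.89), and of the 24 nearest genes over the 18 points 2 were also among the nearest there.

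Against all genes with at least 20 CPM in either stage, a log2 ratio of -1 or below (a 2-fold lower level) was found from E19 to P4 for 2 of the 8 genes in excitatory and 1 in inhibitory neurons, where 0.701% and 0.582% of all such genes were as low. From P4 to P8 it was 2 in each class (0.832% and 0.382% of all genes), and from P8 to P21 it was 6 in excitatory and 7 in inhibitory neurons (3.2% and 3.28%). From E19 to P21 it was all 8 in each (10.7% and 11.3%, or 27% and 28% of genes under 20 kb). All 8 were also that much lower in astrocytes from E19 to P21 (18.2% of all genes), in the lineage of oligodendrocytes when P21 was set against P4 (26.9%) and, over the same interval, in vascular leptomeningeal cells (11.9%). The oligodendrocyte lineage joins precursors with later subtypes, in a mix that differed between stages. From P8 to P21 its Dcx log2 ratio was -1.97, but that of OPCs alone was -0.31 (-0.85 to 0.23). The other members ran from -4.06 (Tubb2b) to -1.69 (Tmsb4x) in OPCs over that step. The share of all genes as low in OPCs is not given here, so nothing is read from this. Dcx in inhibitory neurons was close to the threshold at -1.05, and it was at -0.94 with median-of-ratios scaling, -0.96 with thinned nuclei and -0.97 with 20 CPM added. Because the genes were chosen for these differences, nothing is read from the counts. The median log2 ratio of the 8 from E19 to P21 was -3.62 in excitatory and -3.77 in inhibitory neurons, where the median over all genes was -0.06 and -0.04. Levels higher by log2 1 or more were found in 5.35% and 5.83% of all genes from E19 to P21 and in none of the 8. Per nucleus 6 of the 8 were lower by log2 1 or more in each class, all but Dcx and Stmn2, on a scale on which the median of all genes was higher by 1.16 and 1.07. The share of all genes as low per nucleus is not given here, so nothing is read from this count either.

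Other cytoskeletal genes were less uniform from E19 to P21. Of all genes tested, 10.7% were lower and 5.35% higher by log2 1 or more in excitatory neurons, and 11.3% and 5.83% in inhibitory neurons. The counts of the lists below stand beside these shares. Of 15 other tubulin genes 3 had at least 20 CPM in either stage: Tuba1b (log2 ratio -2.37) and Tubb4b (-1.47) were lower by 1 or more in excitatory neurons and Tubb4a (-0.31) was not. Of 9 further stathmin, thymosin and doublecortin-like kinase genes 5 had that level, and 1 of them was lower by that much, Stmn4 at -2.01, a neuronal stathmin. Stmn3, also neuronal, was at -0.82, Dclk1 at -0.79 and Dclk2 at -0.90, and Dclk3 was at 0.60. Relative to Stmn1, the log2 ratio was higher by 2.77 for Stmn3 and 1.76 for Stmn2 in excitatory neurons. In inhibitory neurons 2 of 3 and 1 of 4 were lower by that much. The genes named from these and the following lists by their counts, beyond the largest differences, were chosen after their values were seen.

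Genes of proteins that act on microtubules lay on both sides. With 10.7% of all genes lower and 5.35% higher in excitatory neurons, nothing is read from the counts of these lists. Of 29 microtubule-associated genes in excitatory neurons 4 were lower by log2 1 or more, namely Fign (-1.67), a severing enzyme, Map1b (-1.29), which acts in growing axons, Mapt (-1.11), which encodes tau, and Camsap3 (-1.04), a minus-end binder. The 1 gene higher by as much was Map7, a kinesin-1 cofactor, from 28.6 to 142 CPM (2.13) in excitatory neurons, with a log2 ratio of 2.25 in inhibitory neurons. Of 15 genes for enzymes of the tubulin tail and of acetylation, 4 were lower, Svbp (-1.93), Atat1 (-1.81), Vash2 (-1.22) and Vash1 (-1.13). Atat1 acetylates α-tubulin and the other 3 serve its detyrosination. Ttll11, a polyglutamylase, was higher in excitatory neurons, from 45.6 to 154 CPM (1.65), as was Agbl4, a deglutamylase (1.26), which went from 307 to 946 CPM (1.61) in inhibitory neurons. In inhibitory neurons 3 of 15 such genes were lower and 4 higher by log2 1 or more. Among 11 tubulin folding genes Pfdn5 (-1.48) was the 1 that was lower by as much.

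A minority of actin genes were as much lower. Of 29 genes of actin and its regulators 8 were lower and 1 was higher by log2 1 or more in excitatory neurons, and 10 and 1 of 29 in inhibitory neurons, with median log2 ratios of -0.48 and -0.58. Of all genes tested, 10.7% and 11.3% were as much lower in these classes, and 5.35% and 5.83% as much higher. Actb, the β-actin gene, went from 589 to 62.1 CPM in excitatory neurons (-3.15), Actg1, the γ-actin gene, from 373 to 23.8 (-3.72), Marcksl1 from 108 to 4.52 (-3.57), and the actin-severing Cfl1 was at -2.60. Cap2, which recycles actin monomers, was higher, from 34.0 to 111 CPM (1.58), and at 1.96 in inhibitory neurons. Of the neurofilament genes in excitatory neurons Ina (-1.37) and Nefl (-1.12) were lower and Nefm (1.07) was higher.

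Ribosomal protein genes and other genes with abundant short mRNAs were lower too. Of 57 ribosomal protein genes 55 were lower by log2 1 or more from E19 to P21 in excitatory neurons, with a median of -2.04, and 60 of 60 in inhibitory neurons, with a median of -2.27. Of 27 other genes with abundant short mRNAs 19 and 18 were, with medians of -1.43 and -1.68. That list includes Actb, Actg1 and Cfl1, which are also among the actin genes above, so the 2 lists are not separate. The share of all UMIs from ribosomal protein genes was 0.520%, 0.349%, 0.259% and 0.162% from E19 to P21. The low level of the tubulins and thymosins at P21 goes with that of these genes in the same libraries, and their part in the result was not tested.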

How the data were processed

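Nuclei of 4 libraries, 1 a stage, were captured with 10x 3′ v3 chemistry, per the labels. Per the submitters' processing notes, Cell Ranger 3.0.2 and the mm10 build were used, and per the labels' protocols the reference was built for pre-mRNA, so intronic reads were counted. The authors deposited 1 matrix of UMI counts, not normalised, for 31053 genes and 9724 nuclei, and a table with the stage, class and subtype of each nucleus. The deposited table also gives, for each nucleus, its counts of UMIs and genes and 2 percent values, the shares of UMIs from mitochondrial genes (at most 5 percent) and from ribosomal protein genes. Recomputed totals matched in all 9724 nuclei. A further 7 columns were not used. How nuclei were filtered, doublets treated and classes named is not given in the sources used here, and no further filter was applied.

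UMIs were summed by library and class or subtype (at least 20 nuclei to be described, 50 to be compared), scaled to CPM, and compared as log2 ratios with 5 CPM added, over genes with at least 20 CPM in either stage. Intervals are exact Poisson intervals for levels and exact Clopper-Pearson intervals for shares, at the 95% level. With 1 library a stage no test was made. The genes and all lists were chosen with earlier results of these data known. Beyond the members, the rule for named genes took the 3 largest differences in each direction within the cytoskeletal lists and the 3 genes with the most similar profile to each member. Other genes of the lists, and the neuronal genes Rbfox3, Syt1 and Snap25, were named after their values were seen. Alternatives were another pseudocount, scaling, weighting of nuclei or subtypes, thinning to 2000 UMIs and leaving out gene groups or the deepest nuclei. Gene positions came from GENCODE M21 (31011 of 31053 identifiers, 99.9%), 1-based, and promoters from RefSeq. Computation used Python 3.11.15, numpy 2.4.6, scipy 1.17.1, pandas 2.3.3 and matplotlib 3.10.9, and was tested on simulated data.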

Additional observations from a re-analysis of the deposited data

How the results depend on the processing

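No paired analysis was possible because each stage had 1 library and the labels number no replicates. For the same reason no replicate could be left out. The number of members lower by log2 1 or more from E19 to P21, and from P8 to P21, stayed within 1.5 times its value under every alternative run, in all classes compared. The small counts of the earlier steps did not. Between E19 and P4 the count of 2 in excitatory neurons was 1 with a pseudocount of 20 CPM and with thinning to 2000 UMIs, and 0 with each nucleus weighted alike, per nucleus, and at a threshold of log2 1.5. Between P4 and P8 their count of 2 was 5 with subtypes weighted alike, 4 with thinning and 0 at a threshold of log2 1.5. Between E19 and P4 the count of 1 in inhibitory neurons was 0 with a pseudocount of 20 CPM, median-of-ratios scaling, nuclei or subtypes weighted alike, thinning, per nucleus and at log2 1.5. Between P4 and P8 their count of 2 was 4 with nuclei weighted alike and with thinning, 5 with subtypes weighted alike, 1 per nucleus and 0 at log2 1.5. The cause was not tested.

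Of 128 log2 ratios of single members from E19 to P21 under the alternatives other than the 2 chosen later, 128 were below 0 and 125 were at -1 or below. The largest shift was 1.30, for Tubb2b in inhibitory neurons with 20 CPM added (-5.17). The scale of UMIs per nucleus, chosen after seeing the data, reversed 1 ratio, that of Dcx in inhibitory neurons (0.11), as did no other alternative. The subtraction of the comparison group's level was also chosen after seeing the data. Median-of-ratios scaling moved the median log2 ratio of all genes from E19 to P21 from -0.06 to 0.07 in excitatory neurons, from -0.04 to 0.08 in inhibitory neurons and from -0.24 to 0.07 in astrocytes, where the median of the members was then -3.51, -3.67 and -3.60. Depth limits the P21 values of Tubb2b most, since they rest on 73 UMIs in excitatory and 56 in inhibitory neurons.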
